A study of Rattus norvegicus with 12 samples.

Results

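This comparison sets hippocampal slice cultures given a control antibody (IgG) against untreated slices (NT), 3 arrays in each group and so 6 of the study's 12 arrays, chosen by the sample titles and paired by replicate number. All cultures came from postnatal day 7 Wistar rats, were cut at 350 µm, kept 4 to an insert at 33 °C and collected after 26 days in vitro (DIV), with 24 cultures pooled into each sample. IgG slices received 3 µg/ml of a purified monoclonal IgG directed against wheat auxin, a growth hormone of plants, from DIV 21 for 5 days, with the medium renewed every 2 days, and NT slices received no antibody. The remaining arrays hold 3 samples each of 11C7 and 7B12, mouse monoclonal antibodies against Nogo-A given at the same dose over the same days, for which IgG is the antibody control. The comparison asks what differs after 5 days of an antibody raised against a plant hormone. No interval of medium renewal is recorded for NT slices. If it differed, the antibody and the renewal given with it cannot be told apart.

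An IgG molecule has variable ends that bind an antigen and a constant Fc part that immune cells recognise. In brain tissue microglia and border macrophages carry most of the Fc gamma receptors. The activating ones, such as Fcgr1a and Fcgr3a, signal through the gamma chain Fcer1g and kinases such as Lyn and Syk, whereas Fcgr2b inhibits. Fcgrt, the neonatal Fc receptor, binds IgG inside cells and returns it to the medium or across endothelium, and clustered IgG can also start the complement cascade through C1q. Slice cultures keep neurons, glia and microglia but lose their blood supply. Only ratios without a level were deposited, so whether a cell type's defining markers are present cannot be read from them. In such pooled tissue fewer cells of a type and less RNA per cell cannot be told apart.

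No probe set passed for IgG against NT: 0 of 31042 (0%) had an adjusted p under 0.05 in limma with Benjamini-Hochberg adjustment, and the smallest adjusted p was 0.0906, for a probe set without a gene symbol that was higher in IgG in 3 of 3 pairs by 2.38 on the log2 scale. At an unadjusted p under 0.05 there were 1059 probe sets (3.41%), fewer than the 1552 that the threshold alone gives when nothing differs. Of these, 552 (1.78% of all tested) were at least 1.2-fold higher and 506 (1.63%) at least 1.2-fold lower in IgG. Such counts depended on the fit, and both were higher with the IgG and NT arrays fitted alone in pairs or with array weights. Averaged to 14217 genes, 0 passed (0%), the smallest adjusted p was 0.470, and an unadjusted p under 0.05 was reached by 243 genes higher (1.71%) and 243 genes lower (1.71%) in IgG. The study's plain one-way test was run on the same 6 arrays. At the study's thresholds, 1.2-fold and an unadjusted p under 0.05, it gave 328 probe sets higher and 268 lower in IgG. After adjustment 0 were left. The median change over genes was -0.0038 on the log2 scale, and the median size of a change was 0.129.

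How small a change can be read depends on the probe set. In 23723 probe sets the 12-array median of the deposited ratio is 1, and these are called reference probe sets below; in the other 7319 (23.6%) it lies under 1, and these are called sub-median, with no level known for either kind and no known divisor for the sub-median ones. The 95% interval of IgG minus NT lay within 2-fold in both directions for 17670 probe sets (56.9%), that is for 74.3% of reference probe sets and for 0.588% of sub-median ones. The median standard error (SE) was 0.21 and 0.91 on the log2 scale. Of the 1059 probe sets with an unadjusted p under 0.05, 547 (51.7%) were sub-median.

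The arrays differed more between replicate numbers than between IgG and NT. The median absolute log2 difference over all probe sets between an IgG array and the NT array of the same replicate number was 0.243, 0.318 and 0.262 for numbers 1, 2 and 3. Between NT arrays of different numbers it was 0.547, 0.518 and 0.412, and between IgG arrays 0.513, 0.489 and 0.410. IgG and NT arrays of different numbers differed by 0.384 to 0.532. All 3 same-number pairs were thus closer to each other than any 2 arrays of one group.

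**Figure D1:**
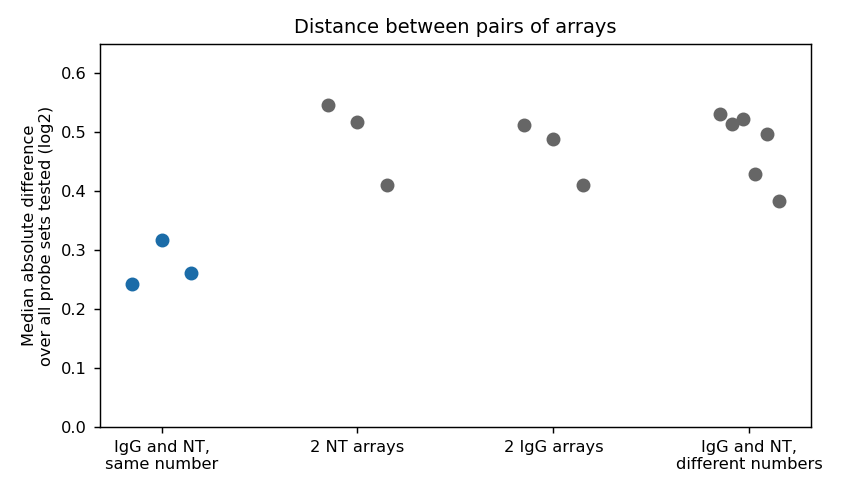
Median absolute log2 difference over 31042 probe sets (vertical axis) for the 15 pairs of IgG and NT arrays, 1 point a pair, by kind of pair (horizontal axis). The 3 pairs of IgG and NT with the same number lie between 0.243 and 0.318, below every other pair, whose lowest value is 0.384.

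Fc receptors and antibody-handling genes were measured for 12 of the 17 on the list, and none passed. Their values below are gene means of the log2 ratio less the array median, in the order of replicate numbers. Fcgr2b, the inhibitory Fc gamma receptor, was at -0.04, 0.00 and 0.99 in NT and at -0.23, 0.12 and 1.15 in IgG, a difference of 0.03 with a 95% interval from -0.41 to 0.47. The groups overlapped, and number 3 was the high one in both. Fcgr3a, an activating receptor, was at -0.34, -0.93 and 0.00 in NT and at -0.36, -0.95 and 0.27 in IgG, which differ by 0.08 with an interval from -0.73 to 0.89. Fcgr1a, the high-affinity receptor, was at -0.82, -0.45 and 0.61 in NT and at -0.40, 0.09 and 0.68 in IgG. It was higher in IgG in each pair, but the groups overlapped and the interval of the 0.34 difference ran from -0.13 to 0.81. Fcer1g, their shared signalling chain, differed by 0.11 with an interval from -0.45 to 0.67. Fcgrt was at 0.78, -0.58 and 0.11 in NT and at 0.47, -1.09 and 0.03 in IgG, lower in each pair by a mean of -0.30 with an interval from -0.64 to 0.04. For Fcgr1a, Fcgr2b, Fcgr3a, Fcer1g and Fcgrt the interval thus leaves out a 2-fold difference in either direction.

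Over the list 10 of 12 Fc genes had a change above 0, against 6970 of 14217 genes (49%), 5 were higher in IgG in 3 of 3 pairs (12.1% of all genes were), and the median change was 0.23. The mean of the list was higher in IgG by 0.34, 0.25 and 0.30 in the 3 pairs. Within NT the same mean ranged over 0.49 between numbers. For 5 of the 12 genes no reference probe set exists, and the higher values sit there: Ms4a2, the beta chain of the mast cell IgE receptor, at 1.09 ± 0.51 (SE), Pigr, the carrier of polymeric antibodies, at 0.80 ± 0.49, and Fcer1a, the IgE-binding chain, at 0.61 ± 0.61. The 2 probe sets of Ms4a2 disagreed, at -0.09 and 2.27, and so did those of Fcer2, at -0.30 and 1.26. Fcmr, also without a reference probe set, went the other way at -0.18. Fcrl2, with a reference probe set, was at 0.18. The median over the 7 genes with a reference probe set was 0.11, and leaving out 1 array at a time moved the list median between 0.10, without NT replicate 2, and 0.39, without NT replicate 3. The part of the sub-median probe sets in the list's shift was not tested.

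**Figure D2:**
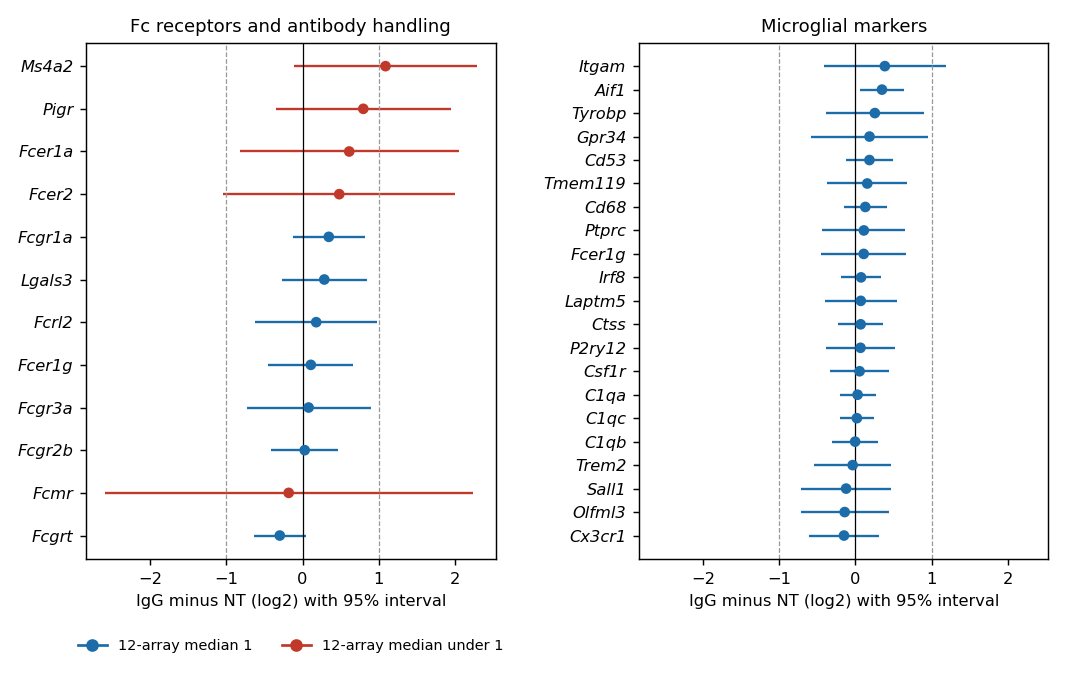
IgG minus NT on the log2 scale (horizontal axis) for each measured gene of the Fc receptor list (left) and of the microglial markers (right), points with 95% intervals from the limma fit; dashed lines mark 2-fold. Intervals cross 0 for all genes drawn except Aif1, and the widest belong to genes without a probe set whose 12-array median is 1.

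The signalling genes behind these receptors differed little. Among 29 measured genes of immunoreceptor (ITAM) signalling, which links clustered receptors to kinases, the median change was 0.04, 0 passed, and 26 had an interval within 2-fold, where 9530 of all 14217 genes (67%) did. Syk, the kinase that docks on phosphorylated receptor chains, differed by -0.04 (interval -0.61 to 0.52) and Lyn, a Src-family kinase upstream of it, by 0.04 (-0.32 to 0.39). The phosphatases that oppose them, Ptpn6 and Inpp5d, differed by 0.17 ± 0.21 and 0.03 ± 0.15 (SE). Lat, an adaptor best known in T cells and mast cells, had the smallest p of the list. It was at -0.44, -1.36 and -0.77 in NT and at 0.02, 0.32 and 0.17 in IgG, without overlap, a difference of 1.03 ± 0.31 that was 0.65 without NT replicate 2. All 3 IgG arrays lay above all 3 NT arrays for 2 genes of the list, and for 319 of all genes (2.24%).

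Microglial markers were close to equal in the groups. Of 21 measured markers 16 had a change above 0, the median change was 0.07, and 20 had a 95% interval within 2-fold. The C1q chains C1qa, C1qb and C1qc, made by microglia, differed by 0.03, 0.00 and 0.02, with SE of 0.10, 0.13 and 0.09. Cx3cr1, the fractalkine receptor, differed by -0.15 ± 0.20 (SE), P2ry12, a purine receptor of resting microglia, by 0.07 ± 0.20, and Csf1r, the receptor microglia depend on, by 0.05 ± 0.16. Aif1, which encodes Iba1, was at -0.19, -0.55 and -0.07 in NT and at 0.06, -0.31 and 0.48 in IgG. It was higher in each pair, by 0.35 with an interval from 0.06 to 0.64, though the groups overlapped and it did not pass after adjustment. The marker mean was at -0.13, -0.49 and 0.50 in NT and at -0.12, -0.33 and 0.59 in IgG, so the numbers spread over 1.00 and the pairs differed by 0.00, 0.16 and 0.09. Without IgG replicate 3 the median change was -0.01. Markers of border macrophages and phagocytes had a wider shift: 12 of 15 lay above 0, the median was 0.22, and the pairs differed by 0.28, 0.26 and 0.33, more than the range of 0.17 between numbers within NT. For 6 of the 15 the interval was within 2-fold, and with 1 array left out the median was 0.13, without IgG replicate 3, to 0.36, without NT replicate 2. Cd163, a haemoglobin scavenger receptor, came nearest to a low p, with -0.05, -2.79 and 0.25 in NT and 0.39, 1.10 and 0.43 in IgG. The difference of 1.5 ± 0.72 (SE) rested mostly on NT replicate 2, without which it was 0.43.

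Genes that inflamed tissue induces showed no shared direction. Among 54 measured cytokine, chemokine and acute-phase genes 27 lay above 0, the median change was 0.00, and 0 passed. Only 13 of the 54 had an interval within 2-fold, a smaller share than of the microglial markers. Those widths use the spread over all 12 arrays, not over IgG and NT alone. The list mean was at -0.68, -0.85 and -0.58 in NT and at -0.55, -0.92 and -0.46 in IgG. With 11C7 it was at 0.51, -0.66 and -0.34, and with 7B12 at 0.40, 0.31 and 1.03. The part of the 11C7 and 7B12 arrays in the widths was not tested. Il1b differed by -0.17 with an interval from -1.81 to 1.47, Tnf by 0.13 (-1.0 to 1.25) and Ccl2, a monocyte chemokine, by 0.24 (-0.66 to 1.15). Lcn2, the siderophore-binding acute-phase protein, was at -2.02, -1.68 and 0.05 in NT and at -2.29, -2.37 and 0.06 in IgG, so that number 3 stood more than 2-fold above the others in both groups. Il1a had the smallest p, at -0.87 ± 0.42 (SE), lower in 2 of 3 pairs.

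Other immune lists also had medians near 0. Over 35 interferon-stimulated genes the median was 0.05 with 21 above 0; Isg15 differed by 0.17 ± 0.57 (SE) and Irf7 by 0.02 ± 0.51. Over 30 Toll-like receptor and NF-kappaB genes it was 0.08, with Tlr4, the endotoxin receptor, at 0.21 ± 0.17, and Ticam1, an adaptor of that receptor, at 0.56 with an interval from 0.05 to 1.07. Over 28 complement genes it was 0.04, and the list mean differed by -0.10, 0.56 and 0.02 in the 3 pairs. C3, the central component, differed by 0.21 ± 0.38. The terminal components C8b and C6 went opposite ways: C8b was at -0.31, 0.88 and 0.09 in NT and at -2.11, -2.18 and -0.02 in IgG (-1.66 ± 0.53), and C6, from a sub-median probe set, had a difference of 1.94 ± 0.73. Over 23 genes of antigen presentation the median was 0.04. There Tap1, a subunit of the peptide transporter for MHC class I, was at -0.33, -0.50 and 0.00 in NT and at -1.20, -2.0 and -0.46 in IgG, lower in 3 of 3 pairs by -0.94 ± 0.26; 1 of its 2 probe sets is sub-median. Cd74, the class II chaperone, differed by 0.05 ± 0.15.

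Nogo and its receptors matter here because IgG is the control for antibodies against Nogo-A. Both probe sets of Rtn4, the gene of Nogo, were level: 1 was at 0.12, 0.06 and 0.01 in NT and at 0.17, 0.09 and 0.01 in IgG (0.03, interval -0.23 to 0.28), and the other differed by -0.02 (-0.31 to 0.27). The 3 probe sets of the receptor Rtn4r differed by -0.61, -0.11 and 0.25, those of its co-receptor Lingo1 by -0.60, -0.41 and -0.05, and those of S1pr2, another Nogo receptor, by -0.11 and 0.02, each with an interval that holds 0. The same held for Rtn4rl1 (-0.21 and -0.06), Rtn4rl2 (-0.16) and Tnfrsf19 (-0.28). Ngfr, the low-affinity neurotrophin receptor p75 that also serves as a co-receptor, differed more. It was at 0.36, 0.34 and 0.87 in NT and at -0.77, -2.66 and -0.13 in IgG, without overlap, a difference of -1.71 with an interval from -2.88 to -0.53. It did not pass after adjustment, and without IgG replicate 2 the difference was -1.01. Of the 17 genes 4 lay above 0, and the median was -0.05.

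Neuronal markers followed the replicate number. The mean over 19 general neuronal genes was at -1.33, 1.24 and 0.19 in NT and at -0.98, 0.95 and -0.06 in IgG. Number 1 was low and number 2 high in both groups, a range of 2.57 in NT and 1.94 in IgG, while the pairs differed by 0.35, -0.29 and -0.24. Snap25, a vesicle fusion protein, was at -2.36, 1.52 and 0.12 in NT and at -2.01, 1.44 and -0.14 in IgG, a difference of 0.00 with an interval from -0.71 to 0.72. Of the 19 genes 4 had a change above 0, with a median of -0.12, and 16 had an interval within 2-fold. Without NT replicate 1 that median was -0.29, and without NT replicate 2 it was 0.03, so 1 array decides its sign. In 3 of 3 pairs 6 of the 19 genes were lower in IgG and 0 higher, against 13.1% and 12.1% of all genes. The markers of hippocampal principal neurons had the same order of numbers, with pair differences of 0.72, -0.30 and -0.21 and a median of -0.02 that became -0.31 without NT replicate 1 and 0.11 without NT replicate 2. Of these 24 genes 1 was lower and 2 higher in 3 of 3 pairs. Of 20 interneuron genes 9 were lower and 1 higher. Their median of -0.07 became -0.29 without NT replicate 1 and 0.07 without NT replicate 2.

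**Figure D3:**
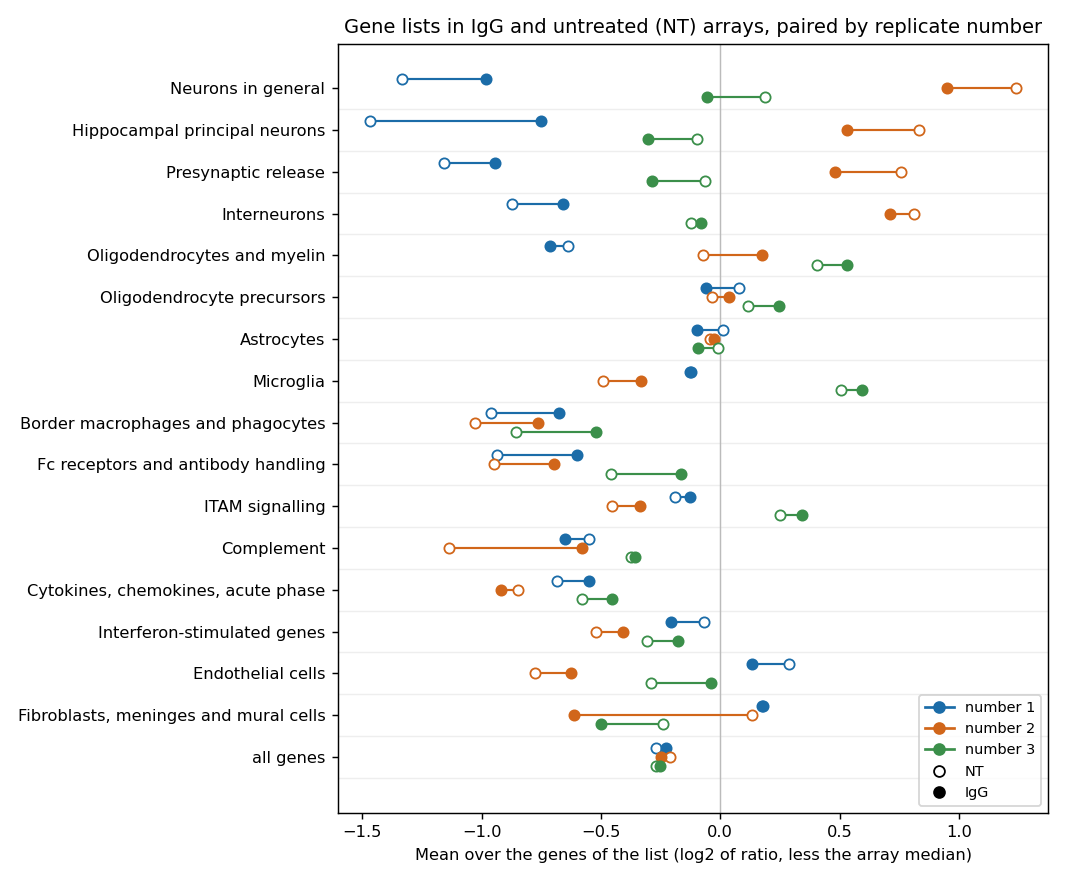
Mean over the genes of each list (horizontal axis, log2 of the ratio less the array median) in NT (open) and IgG (filled) arrays, each pair of the same replicate number joined by a line. For the neuronal lists the numbers lie farther apart than the pairs: general neuronal genes span 2.57 in NT and their pairs differ by 0.35 at most, and principal neuron genes span 2.30 with a widest pair difference of 0.72.

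Medians of the synaptic and channel lists were slightly below 0. They were -0.12 over 46 glutamate receptor and postsynaptic genes, -0.08 over 24 GABA and glycine genes, -0.10 over 34 presynaptic genes and -0.09 over 44 ion channel genes. Lower and higher in 3 of 3 pairs were 12 and 4 glutamate, 5 and 2 GABA, 5 and 0 presynaptic and 9 and 2 channel genes. Of all genes 13.1% were lower and 12.1% higher in 3 of 3 pairs. Without NT replicate 1, in which neuronal genes were low, the GABA, presynaptic and channel medians were -0.24, -0.29 and -0.25. Without NT replicate 2, in which they were high, the GABA and presynaptic medians turned to 0.09 and 0.0046. Slc12a5, the chloride exporter that makes GABA inhibitory, was at -1.01, 1.90 and 0.31 in NT and at -1.73, 1.42 and -0.25 in IgG, lower in 3 of 3 pairs by -0.59 ± 0.21 (SE). Kcnma1, the calcium-activated BK potassium channel, was at -0.38, 0.93 and -0.56 in NT and at -1.57, -0.80 and -0.97 in IgG, a difference of -1.11 ± 0.28, and Cacna1c, an L-type calcium channel, differed by -0.80 ± 0.26. Over 23 immediate early genes, which firing induces within minutes, the median was -0.05. Fos was lower in 3 of 3 pairs by -0.89 ± 0.32 and Fosl2 higher in 3 of 3 by 0.59 ± 0.21, while Egr1 and Arc differed by -0.08 ± 0.13 and -0.20 ± 0.29. None of these genes passed.

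Markers of the other glia differed little. Over 21 astrocyte genes the median was -0.01 and the list mean lay between -0.10 and 0.01 on all 6 arrays. Gfap, the astrocytic filament, was at -0.31, 0.10 and 0.20 in NT and at -0.33, 0.13 and 0.14 in IgG, -0.02 apart with an interval from -0.36 to 0.33. Over 22 oligodendrocyte and myelin genes the median was 0.11, with 17 above 0, against 49% of all genes. With 1 array left out this median was 0.04, without NT replicate 2, to 0.25, without IgG replicate 1. The list mean differed by -0.07, 0.25 and 0.13 in the 3 pairs. Mbp and Mog, components of myelin, differed by 0.01 ± 0.15 (SE) and 0.08 ± 0.19. Over 11 precursor genes the median was 0.00, with Pdgfra at 0.00 ± 0.15.

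Vessel, meningeal and blood cell markers were less even. The median over 25 genes of fibroblasts, meninges and mural cells was -0.21 with 7 above 0, and the pairs differed by 0.01, -0.75 and -0.26. Ptgds, made by meningeal cells, was at -0.12, 2.28 and 0.54 in NT and at -0.45, -0.84 and -0.10 in IgG, so the difference of -1.36 ± 0.63 (SE) came mainly from the high NT replicate 2 and was -0.61 without it. Fbln1, a matrix glycoprotein, differed by -0.80 ± 0.31, and by -0.41 without IgG replicate 2. Over 18 endothelial genes the median was 0.03, and Cldn5, a tight junction protein, was at 1.29, -1.29 and 0.27 in NT and at 0.79, -1.56 and -0.11 in IgG. The fibroblast and meningeal median was -0.48 without IgG replicate 1 and -0.11 without IgG replicate 2. Mmp13, a collagenase from the matrix list, was at -0.51, 0.11 and 0.10 in NT and at -3.52, -3.10 and -3.76 in IgG, a gap of -3.36 ± 0.73 on a sub-median probe set that did not pass. Mmp2, a gelatinase, was lower by -0.81 ± 0.30. Rsph1, a protein of motile cilia, was at -0.25, -0.22 and -0.57 in NT and at 0.35, 0.40 and 0.32 in IgG (0.70 ± 0.18), while the 13 ependymal and choroid plexus markers it belongs to had a median of 0.15.

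Markers of lymphocytes, granulocytes and mast cells had the highest list median, 0.60 over 24 genes, and it was the only one of 37 at 1.2-fold or more. For 19 of those genes every probe set is sub-median, and the median over the 5 genes with a reference probe set was -0.03. Left out 1 at a time, the arrays moved the median between 0.04, without NT replicate 2, and 0.48, without NT replicate 1. Sub-median probe sets as a whole had a median change of 0.08, whose part in this list was not tested. Cd3d, a chain of the T cell receptor complex, had the smallest p of the list, at -3.93, -3.12 and -3.04 in NT and at -1.72, -0.55 and -1.46 in IgG (2.12 ± 0.43, SE).

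Cytosolic ribosomal protein genes had the most even direction of the lists. Of 26 measured, 23 had a change above 0 and 15 were higher in IgG in 3 of 3 pairs, against 12.1% of all genes. The size was small, with a median of 0.12 and pair differences of 0.10, 0.22 and 0.00, and 0 passed. Rpl7 was at -0.67, -0.09 and 0.08 in NT and at -0.01, 0.45 and 0.00 in IgG, so that numbers 1 and 2 were higher and number 3 was not. Without IgG replicate 2 the list median was 0.04. Over 41 respiratory chain genes the median was 0.00, over 30 heat shock and unfolded protein genes -0.02, over 36 cell cycle genes 0.07 and over 28 cholesterol genes 0.02, and 26 to 40 genes of each of these lists had an interval within 2-fold. In 35 of the 37 lists the range between replicate numbers within NT was wider than the mean difference between IgG and NT, the exceptions being border macrophages and astrocytes, and in 10 lists the 3 pairs differed in one direction, positive in 7 and negative in 3.

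The probe set with the smallest p among those with a symbol was 1385854_at of Adam22, a synaptic membrane protein related to metalloproteases that binds the secreted Lgi proteins; it had stood out in earlier work on these data. It was at -2.52, -2.33 and -2.50 in NT and at 0.68, 0.54 and -0.21 in IgG. Every IgG array lay more than 2 log2 units above every NT array, and the 3 NT arrays agreed to within 0.2. The difference was 2.79 ± 0.30 (SE), 6.92-fold, higher in 3 of 3 pairs, with an interval from 2.09 to 3.49, but the adjusted p over all probe sets in limma was 0.309. In the antibody-treated slices it was at 0.24, -0.44 and -0.31 with 11C7 and at 0.28, 0.35 and 0.90 with 7B12, so NT lay apart from all 9 arrays that had an antibody. That held for 114 probe sets (0.367%), while 134 (0.432%) set the IgG arrays apart from the 9 others, 168 (0.541%) the 11C7 arrays and 299 (0.963%) the 7B12 arrays. Of the other Adam22 probe sets, 1374187_at did not share the difference. It was at -0.43, 1.01 and 0.07 in NT and at -0.36, 1.05 and 0.00 in IgG (0.01, interval -0.37 to 0.40). The sub-median 1385343_at was higher in IgG in 3 of 3 pairs, by 0.11, 0.83 and 2.85. Its difference of 1.26 had an interval from -0.31 to 2.83, which holds both 0 and 2.79. The ligand Lgi1 differed by -0.14 ± 0.33 and the relatives Adam23 and Adam11 by -0.20 ± 0.20 and -0.61 ± 0.27.

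By the same order of p, 9 further reference probe sets were higher in IgG in 3 of 3 pairs, and none passed; 7502 of all probe sets (24.2%) had 1 sign in 3 of 3 pairs. Lama2, a laminin chain of basement membranes, was at -0.49, -0.15 and -0.22 in NT and at 0.19, 0.37 and 0.92 in IgG (0.78 ± 0.15, SE). Tfr2, a transferrin receptor that senses iron, was at -1.32, -0.37 and -0.75 in NT and at 0.53, 0.53 and 0.26 in IgG (1.25 ± 0.25). In both genes all IgG arrays lay above all NT arrays, as they do in 789 probe sets (2.54%). For Hspa9, a mitochondrial chaperone, the probe set differed by 0.83 ± 0.18, but the mean of its 4 probe sets by 0.18 ± 0.11. Clec11a, a secreted growth factor of bone marrow stroma, differed by 2.48 ± 0.61, with NT values of -3.40, -0.12 and -2.17 that span far more than the IgG values of -0.05, 0.86 and 0.93. Nacc2, a transcriptional repressor, Casq2, a calcium-storage protein, Liat1, Opa3, a mitochondrial protein, and Znf740, a zinc finger protein, differed by 0.54 to 0.74.

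Lower in IgG in 3 of 3 pairs, and likewise not passing, were 10 reference probe sets. Top1mt, the mitochondrial topoisomerase, had the smallest p of these: it was at -0.30, 0.57 and 0.22 in NT and at -0.91, -0.41 and -0.73 in IgG, a difference of -0.85 ± 0.14 (SE) with an adjusted p of 0.561 in limma. Cdca4, a cell cycle-associated gene, was at 0.31, 0.40 and 0.28 in NT and at -1.28, -0.39 and -0.95 in IgG (-1.21 ± 0.21). Jade1, a scaffold of a histone acetyltransferase, differed by -1.52 ± 0.31. In these 3 genes, and in Tango2 and Ap5z1 described next, the IgG arrays lay below all 9 other arrays. IgG lay apart from the 9 others in 5 of the 20 named reference probe sets. Over all probe sets it did so, on either side, in 134 (0.432%), but the 20 were chosen by their IgG minus NT difference. Below the 3 NT arrays the IgG arrays lay in 640 probe sets (2.06%). Sstr2, a somatostatin receptor of neurons, was at 0.11, 1.94 and -0.16 in NT and at -2.0, 0.56 and -2.70 in IgG (-2.01 ± 0.43). Its groups overlapped, since number 2 was high in both. Tango2 had the widest gap of these, at 0.61, 1.62 and -0.08 in NT and at -2.55, -1.47 and -2.99 in IgG (-3.06 ± 0.68). Bri3bp, Tbc1d2, a regulator of Rab proteins, Ap5z1, an adaptor of vesicle coats, Cep350, a centrosomal protein, and Iffo2 differed by -0.68 to -1.93.

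**Figure D4:**
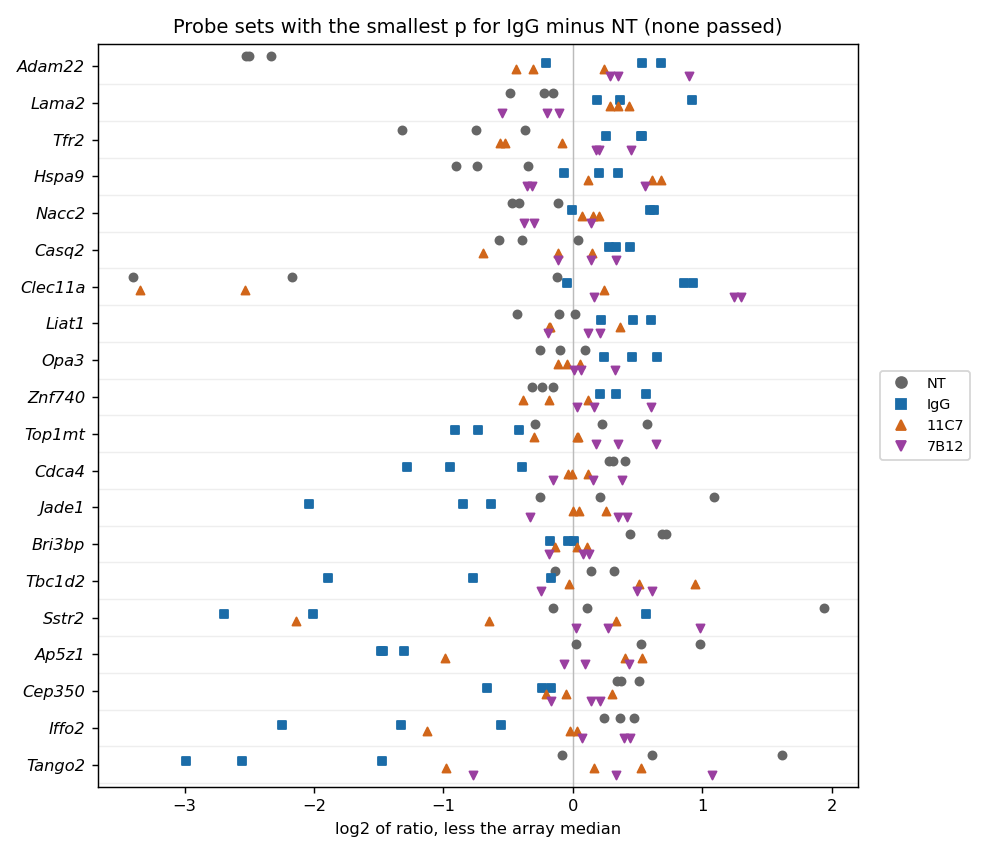
Log2 of the ratio less the array median (horizontal axis) on all 12 arrays for the 20 reference probe sets with the smallest p for IgG minus NT, 10 higher (top) and 10 lower, named by gene; symbols give the group, 3 arrays each. For Adam22 the NT arrays lie near -2.5 and the other 9 between -0.44 and 0.90. For Top1mt, Cdca4, Jade1, Ap5z1 and Tango2 the IgG arrays lie below the rest.

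The sub-median probe sets named by the same order had wider gaps, and several are best known as genes of other tissues. Higher in IgG were Ttc22 (2.60), Spatc1 (2.73), Ahsp, which stabilises alpha-haemoglobin (3.35), Parp6 (2.97) and Cacna1s, the calcium channel of skeletal muscle (2.76). Lower were Tnnt2, a heart troponin (-2.29), Sgk2 (-1.89), Galnt13, which starts O-glycosylation (-2.61), C2cd4a (-2.52) and Sftpd, a lung collectin (-1.26). None passed, and the adjusted p in limma was at least 0.405 for each of the 10.

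The levels in 11C7 and 7B12 do not enter the difference by which these 30 probe sets were ordered, but those arrays entered the fit's spread and the 12-array median, and 11C7 minus IgG and 7B12 minus IgG share the IgG arrays with the comparison. The means of both antibodies lay nearer to IgG in 4 of the 30, Adam22, Hspa9, Bri3bp and Galnt13. They lay nearer to NT in 14, and in the remaining 12 only 1 of the antibodies was nearer to IgG, 11C7 in 4 and 7B12 in 8. The same shares over all probe sets were not counted. IgG arrays lay apart from the 9 others in 10 of the 30 and NT arrays in 4, against 0.432% and 0.367% of all probe sets. As the 30 were chosen for their IgG minus NT difference, none of these counts is read as a result on the antibodies. Top1mt was 0.61 higher with 11C7 and 1.07 higher with 7B12 than with IgG, against 0.85 higher in NT. Galnt13 was at -1.0, -0.74 and -0.44 in NT and at or below -2.34 on all 9 antibody arrays. None of the 30 passed for 11C7 or 7B12 against IgG. The mean of the 3 antibody groups against NT, a contrast added after the data were seen, also had 0 passing probe sets (0%), with a smallest adjusted p of 0.0536 in limma and 1495 at an unadjusted p under 0.05. IgG against the mean of the other 3 groups had 0 (0%), with 0.424 and 1362.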

How the data were processed

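Per the labels' protocols, RNA with an integrity number above 9 was made into biotin cRNA for Affymetrix rat arrays, and the authors used GCOS 1.4 and MAS5 (version not given) per the submitters' processing notes. The authors deposited 1 ratio per probe set and array. The authors state division by a control median, yet 76.4% of probe sets have a 12-array median of 1 within 0.0015, so the divisor of these looks like the median of all arrays. That divisor cannot give the medians under 1 of the other 23.6%, whose divisor is unknown. If each probe set had 1 divisor on all arrays, group differences on the log2 scale do not depend on it. The lowest deposited ratio is 0.01.

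Of 31099 rows, 57 spike-in controls were left out. With the platform annotation, 20826 of 31042 probe sets (67.1%) have 1 symbol, 436 several and 9780 none here, which gives 14217 genes (mean over probe sets). Each value is log2 of the ratio less its array median. limma 3.58.1 (R 4.3.3) was fitted on all 12 arrays, 1 mean per group with the replicate number as a block, eBayes without trend, two-sided, Benjamini-Hochberg over all probe sets or genes, threshold 0.05. Intervals are 95%. With 3 arrays a group, their number limits the precision. Replicates are separate cultures from different animals per the labels. Pairing by number was set by the definition of the comparison. Deviations from the group means correlated at 0.127 to 0.365 between IgG and NT arrays of the same number and at -0.232 to 0.046 otherwise. As the 3 deviations of a group sum to 0, this contrast is partly built in.

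Members, the 37 lists (939 of 1093 genes measured, matched by exact symbol) and the rule for names were chosen with earlier results of these data known. Lists are described by counts and medians, with no test. Named are, per direction, 10 reference and 5 sub-median probe sets with the smallest p, at least 1.2-fold and 1 sign in 3 of 3 pairs (as none passed); 2 to 4 genes of smallest p per list described; and Adam22, Rtn4, its receptors and Fc receptors. The fit was tested on simulated data with normal noise, in which only reference probe sets were changed, 50 at each size. It recovered 0% of the 1.5-fold changes, 24% of 2-fold, 70% of 4-fold and 90% of 8-fold. It also called 4 unchanged probe sets. Many changed probe sets at once ease the Benjamini-Hochberg cut, so these shares need not hold for the real data. There the reference probe sets of Adam22 (6.92-fold) and Tango2 (8.32-fold) did not pass. Changes, also large ones, can thus go unseen where 0 passed. Other genes named as markers of a list were chosen for their role after the values were seen. Alternatives covered the block, arrays in the fit, centring, quantile normalization, a pseudocount of 0.1, sub-median probe sets, trend, array weights, the methods' test and each array left out.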

Additional observations from a re-analysis of the deposited data

How the results depend on the processing

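Under 16 other settings of the probe set fit, 0 probe sets passed in all but 1: without NT replicate 2 a single probe set, without a symbol, passed with an adjusted p of 0.0131 in limma and a difference of 3.25, so with 1 array left out the count was 0 to 1. Without the replicate block 0 passed, and 408 probe sets were higher and 311 lower at an unadjusted p under 0.05 with 1.2-fold, against 552 and 506 with the block. Other fits gave more: 757 higher and 648 lower with the block on the IgG and NT arrays alone, and 782 and 756 with array weights. With array weights the smallest adjusted p in limma was 0.0522. On probe sets with a 12-array median of 1 alone, which are fewer, 280 were higher. The methods' plain one-way test on 6 arrays gave 328 higher and 268 lower. With 1 array left out, 460 to 752 were higher and 427 to 802 lower, 802 without IgG replicate 1. The count of lists at 1.2-fold or more, 1 as reported, was 2 with array weights and 1 to 7 with 1 array left out, 7 without NT replicate 1, 4 without IgG replicate 1, 3 without NT replicate 3 and 2 without IgG replicate 3. Same-number distances were 0.253 to 0.290 and one-group distances 0.456 to 0.498 in those fits. Of the 37 list medians, 24 took both signs when 1 array was left out. Reasons for these moves were not tested, beyond the smaller number of arrays or probe sets. The 30 named probe sets passed in 0 of 470 refitted values; their direction was largely fixed by how they were chosen. For Adam22 the difference was 2.25 to 3.10, and its smallest adjusted p, without the block, was 0.0875.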
